A study of Caenorhabditis elegans with 7 samples.

Results

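The late transcriptional response of adult Caenorhabditis elegans to heat is described here, from 3 arrays taken after 8, 10 and 12 h at 30 °C and 1 array taken at 0 h. These are 4 of the 7 arrays of a time course. The animals were of strain CF512, which per the labels is sterile at 25 °C, the temperature at which all of them, the 0 h animals included, were grown to adulthood. The sources used here give neither the alleles behind the sterility nor the number of animals per array. Each array set total RNA of whole worms against a common reference RNA named HS1, so a value is a log2 ratio to that reference and not an absolute level. A feature is a gene, with its probes averaged, or a single probe with no gene name. There were 14373 features with a value on all 4 arrays, of which 5757 were named genes and 8616 were unnamed probes. The late change of a feature is the mean of its 8, 10 and 12 h ratios minus its 0 h ratio.

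Heat makes proteins misfold, and cells answer through heat shock factor, a transcription factor that switches on genes for chaperones such as the HSP70 proteins and the small heat shock proteins. This induction is fast and is usually transient, while metabolic and growth genes can go on changing as heating continues. In worms the intestine is the main site of fat storage, of peroxisomal fatty acid breakdown and of the metabolism of purines and amino acids.

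The 4 arrays held values for 16143 to 16972 of the 19200 probes. The standard deviation over probes was 0.533, 0.563 and 0.585 at 8, 10 and 12 h, against 0.634 at 0 h, so the baseline array had the widest spread. Over the 14373 features the late arrays correlated with each other with a Pearson r of 0.488 (8 and 10 h), 0.469 (10 and 12 h) and 0.397 (8 and 12 h). Their r with the 0 h array was -0.09, -0.16 and -0.22. Every ratio shares the reference RNA, and features are not independent replicates. Each time has 1 array, so the spread behind every test is that of single arrays from 3 different times, and anything particular to the 0 h array counts as a late change. RNA came from whole animals, so fewer cells of a type and less RNA per cell cannot be told apart.

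F44E5.4 and F44E5.5, adjacent genes for heat-inducible HSP70 chaperones, set the direction in which the ratios are read. F44E5.4 had ratios of 0.10, -1.19 and -0.61 at 8, 10 and 12 h, against -4.98 at 0 h, and F44E5.5 had 0.12, -1.02 and -0.01, against -4.98 at 0 h. Every late ratio of both genes lay above the baseline, which was cut off at the file's lower limit. Reading them as induced makes the ratios worm RNA over reference, which is likely, though no source used here states it. With the sign turned, higher and lower change places in everything below. The late changes were at least 4.41 for F44E5.4 (SE 0.50, at least 21.3-fold if the logs are of base 2; limma adjusted p = 0.0193) and at least 4.68 for F44E5.5 (SE 0.49; limma adjusted p = 0.0164). These p-values bear on size only, and signal from the 2 near-identical copies cannot be told apart here.

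The first question was how much of the transcriptome stood apart from baseline late in heating. Of the 14373 features tested with limma, 140 rose and 289 fell at a Benjamini-Hochberg adjusted p under 0.05, which is 0.974% and 2.01% of those tested and 2.98% for both directions. Among named genes, 60 rose (1.04%) and 118 fell (2.05%). The raised features had a median ratio of 0.53 late, against -2.07 at 0 h, and the lowered ones -0.94 late, against 1.32 at 0 h. In other words, the raised features lay close to the reference late in heating and far below it at baseline, with a 0 h ratio of -1 or less for 135 of the 140. For the lowered features the 0 h ratio was 1 or more in 240 of the 289. The calls depend on the arrays used. With 1 late array left out there were 44 higher and 70 lower without 8 h, 14 and 0 without 10 h, and 0 and 0 without 12 h, where 2741 features had an unadjusted p under 0.05. Quantile normalization gave 76 higher and 79 lower, so that 49.0% of the calls were higher, against 32.6% with median centring. Every call below is therefore lost without the 12 h array, and every call of a lowered gene without the 10 h array too. Leaving out an array also leaves fewer arrays for the spread. Whether the loss comes from that or from the values of the array was not tested.

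**Figure D1:**
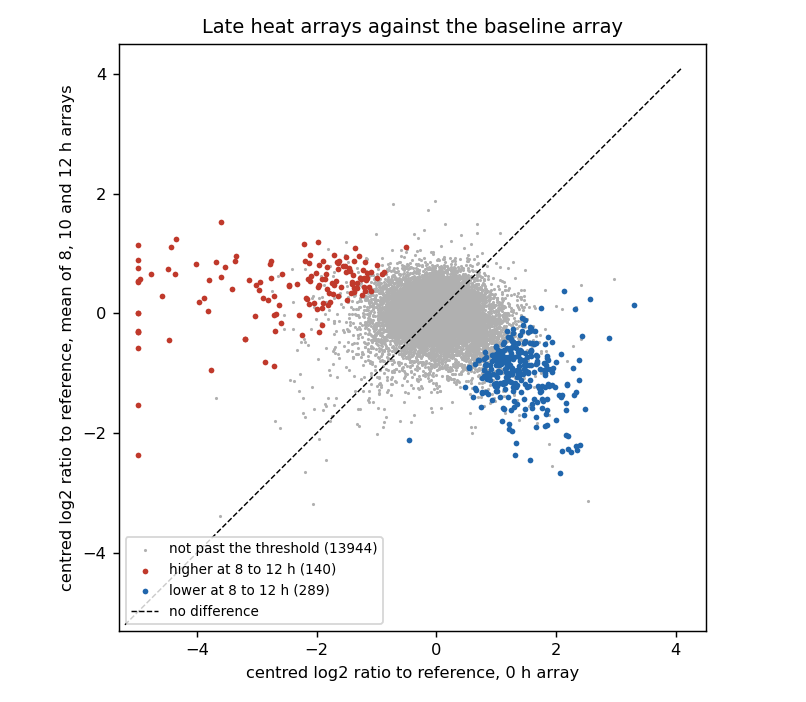
Each point is 1 of 14373 features, with its centred log2 ratio on the 0 h array (horizontal axis) and the mean of its ratios on the 8, 10 and 12 h arrays (vertical axis). The 140 features called higher (red) lie at the left and the 289 called lower (blue) at the lower right, while the dashed line marks no difference.

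Position relative to the baseline was also counted without a test. All 3 late arrays lay above the 0 h array for 5202 features (36.2%) and below it for 4434 (30.8%). With 3 arrays against 1, a permutation test cannot go below a two-sided p of 0.5 for a single feature. A late change of 1 log2 unit or more was seen upward in 681 features (4.74%) and downward in 1291 (8.98%). The median change of all features was 0.04.

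The genes with the highest late changes were F57A10.2, F08G2.5 and ZK816.3, none of which has a role used here. F57A10.2 had ratios of 0.32, 0.87 and 2.25 at 8, 10 and 12 h, against -4.98 at 0 h, the limit of the file, a change of at least 6.13 (SE 0.72) that passed with a limma adjusted p of 0.0208. Its late ratios spread widely, with a standard deviation of 0.99, but the lowest of them stood far above the baseline. F08G2.5 had 0.96, 1.45 and 1.33 at 8, 10 and 12 h, against -4.34 at 0 h, a rise of 5.59 (SE 0.31; limma adjusted p = 0.00414). For ZK816.3 the ratios were 1.10, 0.66 and 1.58, against -4.43 at 0 h, a rise of 5.54 (SE 0.40). For both genes the groups were far from overlapping, with all late ratios above 0.

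Of the other raised genes with a small spread across the late arrays, 3 are given here. Y38H6C.7, a pseudogene in the RefSeq table, had 0.70, 0.58 and 0.70 late, against -4.77 at 0 h, and rose by 5.43 (SE 0.26). F57A8.1 had 0.42, 0.14 and 0.30, against -4.58, and rose by 4.87 (SE 0.27). C01G10.13, also a pseudogene in that table, had 0.68, 0.98 and 0.79, against -4.01, and rose by 4.83 (SE 0.27). Their standard deviations over the late arrays were 0.07, 0.14 and 0.15, under the median of 0.25 for all features. C23G10.1 rose by 5.01 (SE 0.38) with a wider late standard deviation of 0.42 and its highest late ratio, 1.12, at 8 h.

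In 3 further genes the 12 h ratio was the highest. M01E5.2 had 1.21, 1.46 and 1.93 at 8, 10 and 12 h, against -3.60 at 0 h, and rose by 5.13 (SE 0.35; limma adjusted p = 0.00952). R11A5.3 had 0.56, 0.67 and 1.32, against -3.67, and rose by 4.53 (SE 0.38). dpsm-1 had 0.74, 0.87 and 1.03, against -3.36, and rose by 4.24 (SE 0.27). Single arrays do not tell such an order from the spread between arrays.

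Of the features past the threshold, T16G1.7 had the lowest late change, with ratios of -2.32, -3.08 and -2.59 at 8, 10 and 12 h, against 2.07 at 0 h. It fell by 4.74 log2 units (SE 0.36, 26.7-fold if the logs are of base 2; limma adjusted p = 0.011). An unnamed probe had a lower change, -5.67, that did not pass. Its neighbour T16G1.6 had -1.17, -1.44 and -1.49, against 2.04 at 0 h, and fell by 3.41 (SE 0.28). T16G1.4 had -1.07, -2.40 and -1.38, against 1.85, and fell by 3.47 (SE 0.53). Where 2.01% of all features fell, these were 3 of the 5 T16G1 genes with values on the 4 arrays. The other 2 passed no threshold. This list and those below were chosen with earlier results of these data known, so their shares beside that of all features are a description. T16G1.9 had a late change of 0.10, and T16G1.2 had 0.09, 0.71 and 3.38 late, against -0.21 at 0 h, so that only its 12 h ratio stood far from the baseline. The call of T16G1.4 was lost with quantile normalization, among others, and held in 7 of 13 alternatives.

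Several other lowered genes lay on the high side of the reference at baseline and well below it late. ltah-1.2 had -1.55, -2.90 and -2.42 at 8, 10 and 12 h, against 2.34 at 0 h, and fell by 4.63 (SE 0.53). F25D1.5 had -1.52, -2.35 and -2.19, against 2.17, and fell by 4.20 (SE 0.39). C18H9.6 had -0.98, -1.74 and -2.08, against 2.48, and fell by 4.07 (SE 0.45). In each of these 3 the 8 h ratio was the nearest to the baseline, as it was for T05E12.3 and C46H11.2, which fell by 4.01 (SE 0.47) and 3.67 (SE 0.39). F28H7.3 fell by 3.64 (SE 0.29), with its lowest ratio, -1.46, at 8 h. dbd-17 (-3.40, SE 0.58) and F31F7.1 (-3.28, SE 0.48) completed the 12 lowest, together with cest-29, given with its family below. The calls of dbd-17 and F31F7.1 were lost with quantile normalization, among others, and held in 5 and 8 of 13 alternatives.

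**Figure D2:**
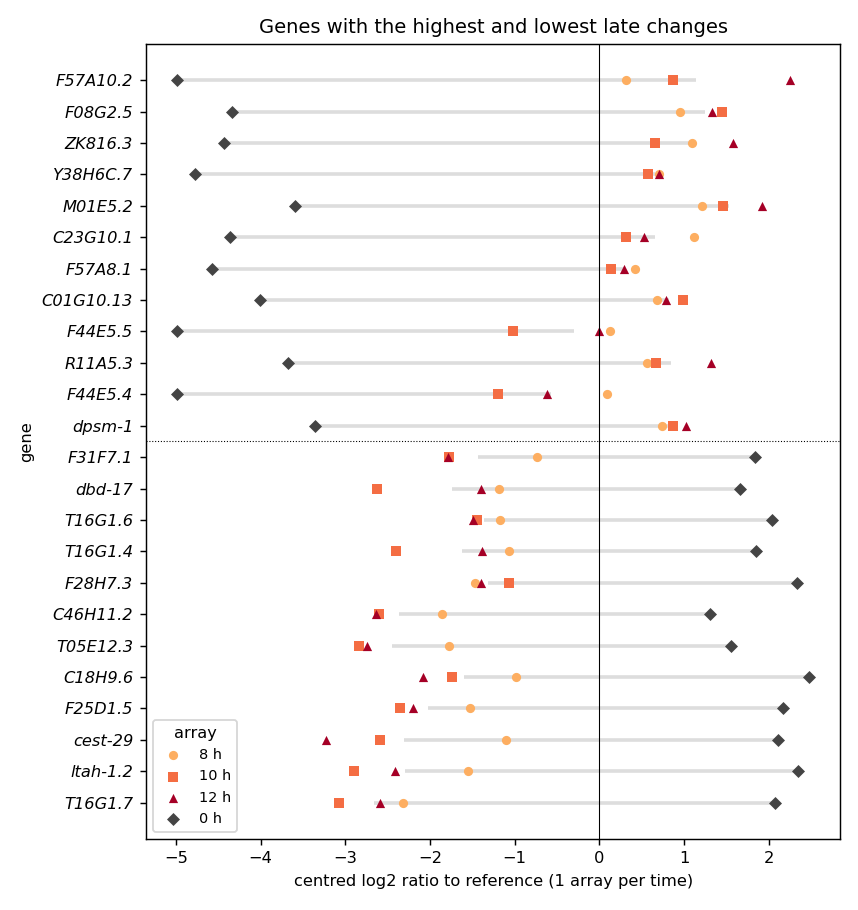
Centred log2 ratios of the 12 named genes with the highest late changes (above the dotted line) and the 12 with the lowest (below it), with 1 array each at 8, 10, 12 and 0 h and a grey line between the late mean and the 0 h ratio. In all 24 genes the 3 late ratios lie on 1 side of the 0 h ratio, and F57A10.2 and cest-29 are among the genes with the widest late spread.

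Of 5 measured genes in the list for fatty acid oxidation in peroxisomes and mitochondria, 3 fell, 0 rose and 2 did not pass. Of all features 2.01% fell. In this list 4 genes lay below the baseline on all 3 late arrays (80.0%, against 30.8% of all features). acox-1.6, for an acyl-CoA oxidase of peroxisomal β-oxidation, had -0.88, -0.69 and -1.23 at 8, 10 and 12 h, against 1.89 at 0 h, and fell by 2.82 (SE 0.31; limma adjusted p = 0.0183). acox-1.4, for another acyl-CoA oxidase, had -1.39, -0.44 and -1.20, against 1.36, and fell by 2.37 (SE 0.42), with a limma adjusted p of 0.0499 that passed in only 5 of 13 alternatives. lonp-2, for the peroxisomal Lon protease, had -0.97, -1.11 and -1.59, against 1.32, and fell by 2.55 (SE 0.33). The 3 falls in this list are thus those of 2 acox genes and of a protease. The fall of lonp-2 is counted again in the protein turnover list. Another acyl-CoA oxidase gene, acox-3, had no value at 12 h and was not tested. It stood at -1.64 and -1.70 at 8 and 10 h, against 1.99 at 0 h. decr-1.1 had a change of -1.51 and hach-1 one of -0.25, and neither passed. The list median was -2.37.

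Of 8 measured genes of nucleotide metabolism, 3 fell, 0 rose and 5 did not pass, where 2.01% of all features fell. On all 3 late arrays 7 of the 8 (87.5%) lay below the baseline, against 30.8% of all features. pfas-1, for an enzyme of purine synthesis, had -1.12, -1.46 and -0.96 at 8, 10 and 12 h, against 0.96 at 0 h, and fell by 2.14 (SE 0.31; limma adjusted p = 0.035). pnp-1, for purine nucleoside phosphorylase, had -0.51, -1.23 and -1.31, against 1.26, and fell by 2.27 (SE 0.39). gda-1, for guanine deaminase, had -0.77, -1.19 and -1.21, against 1.02, and fell by 2.07 (SE 0.30). The other members had small changes, such as -0.59 for xdh-1 (xanthine dehydrogenase), -0.48 for aprt-1 (adenine phosphoribosyltransferase) and 0.44 for adk-1 (adenosine kinase). The list median was -0.54. The 3 calls were each lost with quantile normalization, among others. They held in 7 (pfas-1), 6 (pnp-1) and 7 (gda-1) of 13 alternatives.

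Of 4 measured genes of amino acid and hydroxyacid metabolism, 1 fell, where 2.01% of all features fell. hphd-1, for a hydroxyacid-oxoacid transhydrogenase, had -1.35, -1.35 and -1.23 late, against 1.74 at 0 h, and fell by 3.05 (SE 0.26; limma adjusted p = 0.0129), one of the most even responses across the late arrays (SD 0.07). aass-1, for the first enzymes of lysine breakdown, had a change of -1.05 and oatr-1, for ornithine aminotransferase, one of 0.02, and neither passed. Of the UDP-glucuronosyltransferase genes, whose enzymes attach sugars to small molecules, ugt-66 fell by 1.84 (SE 0.28). Its call was lost with quantile normalization, among others, and held in 6 of 13 alternatives. The change of ugt-67 was -0.39 and did not pass.

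The carboxylesterases hydrolyse ester bonds in lipids and foreign compounds. Of the 32 cest genes on named probes, 25 were measured on the 4 arrays. Of these 25, 3 fell, 0 rose and 22 did not pass, where 2.01% of all features fell. The median change of the 25 was -1.0, against 0.04 for all features. Of them, 19 (76.0%) lay below the baseline on all 3 late arrays, against 30.8% of all features. cest-29, a pseudogene in the RefSeq table, had -1.10, -2.58 and -3.23 at 8, 10 and 12 h, against 2.10 at 0 h, and fell by 4.41 (SE 0.78; limma adjusted p = 0.0486). cest-2.1 fell by 2.09 (SE 0.37) and cest-9.1 by 1.94 (SE 0.29). All 3 calls were lost with quantile normalization, among others. They held in only 6 (cest-29), 5 (cest-2.1) and 6 (cest-9.1) of 13 alternatives. The members were far from uniform. cest-1.2 had a change of -3.09 (SE 0.68) that did not pass, with late ratios from -2.60 to -0.81, and cest-2.2 (-0.04), cest-1.1 (0.03) and cest-3 (0.64) stood near or above the baseline.

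Protein turnover genes changed in both directions. Of 14 measured, 1 rose, 3 fell and 10 did not pass, where 0.974% of all features rose and 2.01% fell. The median was -0.83, against 0.04 for all features, and 8 (57.1%) lay below the baseline on all late arrays, against 30.8% of all features. dap-1, whose mammalian relative is a negative regulator of autophagy, had 0.50, 0.49 and 0.74 late, against -1.86 at 0 h, and rose by 2.44 (SE 0.27; limma adjusted p = 0.0183). The proteasome activator gene psme-4 had 0.85, 0.90 and 1.16, against -0.36, a change of 1.33 (SE 0.28) that did not pass. The lowered members besides lonp-2 were lysosomal in type. ctsa-2, for a cathepsin A-like carboxypeptidase, had -1.03, -1.04 and -1.54, against 1.7 at 0 h, and fell by 2.90 (SE 0.32). lgmn-1, for the asparaginyl endopeptidase legumain, had -0.34, -1.15 and -1.07, against 1.57, and fell by 2.43 (SE 0.39), a call lost with quantile normalization. The mitochondrial Lon protease gene lonp-1 had a change of 0.74 (SE 0.27) that did not pass, in contrast to the fall of its peroxisomal relative lonp-2. The difference between these 2 genes was not tested.

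The genes of ribosome assembly and translation on named probes gave no call, where 2.98% of all features passed. Of 19200 probes 11300 have no gene name, so each list may hold only part of its kind. Of 14 nucleolar assembly genes, 0 passed, while 10 (71.4%) lay above the baseline on all late arrays, against 36.2% of all features, and the median was 0.44. Members on the other side included rrp-8, with a change of -0.39 and all late ratios below the baseline. The highest were utp-11, of the small-subunit processome (0.90, SE 0.32), rrp-1 (0.90, SE 0.34) and nol-56, a box C/D snoRNP protein (0.85, SE 0.29). nol-56 had 0.53, 0.32 and 0.09 at 8, 10 and 12 h, against -0.53 at 0 h. Of 8 translation factor genes, 0 passed, 6 lay above the baseline on all late arrays, and the median was 0.49, while eif-2A, with -0.32, lay below it on all 3. eif-2gamma, for a subunit of the initiation factor that brings initiator tRNA to the ribosome, had 0.35, 0.56 and 0.87, against -0.23, a change of 0.82 (SE 0.31; limma adjusted p = 0.218).

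In the next lists few or no genes passed, where 2.98% of all features passed. Of 14 respiratory chain and assembly genes 0 passed (median 0.12), the most positive being the complex I assembly factor genes nuaf-7 (0.77) and nuaf-5 (0.76). Of 15 splicing genes 0 passed (median 0.17), and of 8 genes of DNA replication and repair 0 passed (median 0.10). In the secretory and glycosylation list 0 of 24 passed (median -0.13). Of 20 pals genes, a family with links to the response to intracellular pathogens, pals-26 alone passed. It had 0.88, 0.82 and 1.57 late, against -1.35 at 0 h, and rose by 2.44 (SE 0.38), a call lost with equal median absolute deviations, while the family median was -0.02. Of 35 solute carriers and channels, slcr-46.3 (-1.95, SE 0.28) and mfsd-8.5 (-1.76, SE 0.28) fell, and the median was -0.05, or -0.33 without the 8 h array. Both of these calls were lost with quantile normalization, among others, and held in 7 (slcr-46.3) and 6 (mfsd-8.5) of 13 alternatives.

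Among genes of other kinds, 0 of 18 neuropeptide and receptor genes passed (median -0.07), 0 of 24 genes with sr names (median -0.35) and 0 of 4 F-box genes (median -0.32). Of all features 2.98% passed. The irg genes gave -1.62 (irg-5), -1.10 (irg-8) and -0.22 (irg-4), with 0 of 3 past the threshold. The 3 ribosomal protein genes gave 1.06 for mrps-27, -0.62 for mrps-18.C and -0.07 for rpl-37.1, and acs-24 and acs-25 gave 0.26 and -0.23, all without passing. Lists for cuticle collagens, nuclear hormone receptors, intestine and muscle had no gene on a named probe, so the labelled material was not checked against intestine or muscle markers.

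Germline markers are of interest in a sterile strain. Of 10 measured germline, oocyte, eggshell and uterine genes 0 passed (median -0.02), where 2.98% of all features passed. The summed ratio of the 10 was -0.3, -0.6 and 0.3 at 8, 10 and 12 h, against 0.5 at 0 h. The 4 ule genes, named for the uterine lumen, all lay below the baseline on the 3 late arrays, as did 30.8% of all features, with changes from -1.83 (ule-4) to -0.41 (ule-1) that did not pass. The measured cpg and syp genes had changes from 0.003 (syp-5) to 0.94 (syp-6). The sperm list held 38 measured genes, of which 34 are nssp genes whose role is not used here. Its 4 spe genes had changes from -0.38 to 0.89, and 0 of the 38 passed. On all 3 late arrays 16 of the 38 (42.1%) lay below the baseline, against 30.8% of all features. The summed ratio of the 38 was -4.7, 3.1 and -3.0 late, against 9.0 at 0 h, and whether this bears on the changes above was not tested.

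**Figure D3:**
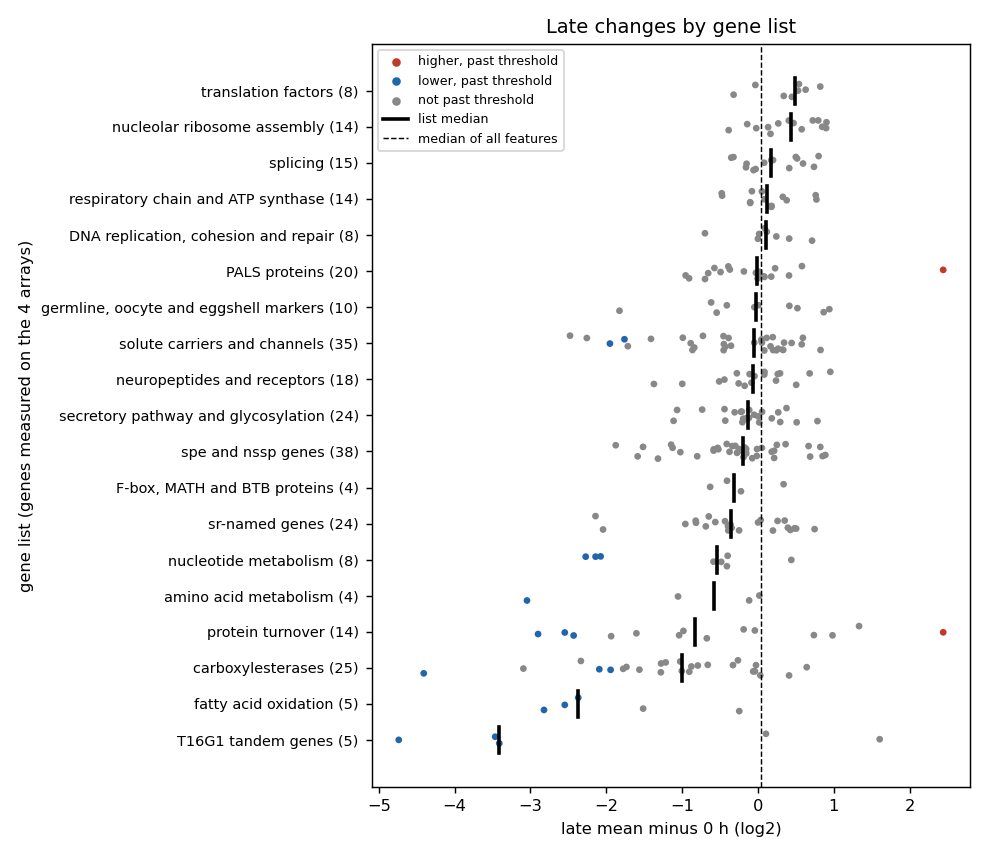
Late change (mean of 8, 10 and 12 h minus 0 h, log2) of every measured gene in the lists with at least 4 such genes, with the list median as a black bar and the median of all features, 0.04, as a dashed line. T16G1, fatty acid oxidation, carboxylesterase and protein turnover genes have medians from -3.41 to -0.83, and the translation and nucleolar lists have medians of 0.49 and 0.44 with no gene past the threshold.

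Some changed genes lay side by side in the WBcel235 gene order. No coordinates are given, since no source used here names the build on which the probes were designed. Of 5757 named genes 178 passed, and among 1846 pairs of adjacent measured genes 1 or both passed in 110. Both passed in 11 pairs (0.596%), made up of 21 genes. Of these pairs 7 were raised, 4 were lowered and 0 went opposite ways. Beside the HSP70 pair and T16G1.6 with T16G1.7, they included C10C5.3, C10C5.4 and C10C5.5, which fell by 1.75, 2.48 and 1.71. C06B3.6 and C06B3.7 rose by 2.72 and 2.40, and F46A8.4 and F46A8.5 by 2.03 and 2.83. Y46H3A.4 and Y46H3A.5, which follow hsp-16.41, a small heat shock protein gene, with srt-42 between, rose by 3.87 and 2.00. T27E4.1 and F21C10.10, next to hsp-16.11, rose by 2.65 and 3.22. Other measured genes around the same hsp-16 cluster did not pass, with changes of 1.23 for F21C10.9 and -1.72 for T27E4.7. No hsp-16 gene had a named probe. Whether neighbouring probes share signal was not tested.

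The late arrays were then compared among themselves. Among the 140 raised features the highest ratio fell at 8 h in 35.7%, at 10 h in 30.7% and at 12 h in 33.6%, and the median ratio was 0.50, 0.49 and 0.51. Among the 289 lowered features the lowest ratio fell at 8 h in 16.3%, at 10 h in 43.6% and at 12 h in 40.1%, and the median ratio was -0.80, -1.0 and -0.98. The 8 h array held the lowest ratio in the smallest share of the lowered features, a difference that was not tested. For all 4434 features below the baseline on every late array the shares were 26.5%, 34.4% and 39.2%, and for all 5202 features above it they were 29.4%, 28.8% and 41.8%. The calls were made on these same arrays and favour features with a small late spread, so the shares are a description.

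Single genes show the range. cest-29 (SD 1.09 over the 3 late arrays), F57A10.2 (0.99), dbd-17 (0.78) and F19C6.5 (0.73) had the widest late spread among named genes past the threshold. F19C6.5 had -2.77, -1.39 and -1.64, against 1.22 at 0 h, and fell by 3.15 (SE 0.56). Its call held in only 4 of 13 alternatives, and that of R04B5.1 in 4 of 12. Both calls were lost with quantile normalization, among others. C06B3.7 had the narrowest late spread, with 0.24, 0.26 and 0.22 late, against -2.16 at 0 h. T28F4.4 was as even, with -0.16, -0.19 and -0.14, against -2.59, as were W02B3.4, with 0.81, 0.89 and 0.86, against -1.66, and R04B5.1, with 1.07, 1.16 and 1.12, against -0.50. These 4 rose by 2.40, 2.42, 2.51 and 1.62.

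The last question was which late values differ from those at 2, 4 and 6 h. Of 13478 features with a value on these 6 arrays, 0 passed with limma (0% of those tested, lowest adjusted p = 0.21), while 1467 had an unadjusted p under 0.05, 627 of them higher late and 840 lower. A difference between late and early heating was therefore not established for any single gene, and that does not show that the values are alike. The lowered features with values on all 7 arrays had a median ratio of -0.94 late, -0.31 at 2 to 6 h and 1.31 at 0 h. For the raised ones these medians were 0.53, -0.01 and -2.07. The features were called on the late arrays, so these medians are no evidence of a further change after 6 h.

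Named genes differed in how their early ratios lay. acox-1.6 had -0.90, -0.54 and -0.96 at 2, 4 and 6 h, close to its late ratios, with a late minus early difference of -0.13 (SE 0.21). hphd-1 had -0.92, -0.81 and -1.20 at those times, with a difference of -0.33 (SE 0.18). In contrast, pfas-1 had 0.82, 0.70 and -0.10 at 2, 4 and 6 h, near its 0 h ratio of 0.96 for the first 4 h, and its difference was -1.65 (SE 0.27; limma adjusted p = 0.21). pnp-1 had 1.11, 0.34 and -0.60, with a difference of -1.30 (SE 0.42). T16G1.7, already at -1.43 at 2 h, had a difference of -1.40 (SE 0.23; limma adjusted p = 0.21).

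Raised genes showed both kinds as well. M01E5.2 had -2.13, -0.28 and 0.42 at 2, 4 and 6 h, with a late minus early difference of 2.20 (SE 0.57; limma adjusted p = 0.262), and F08G2.5 had -1.81, -0.79 and 0.70, with a difference of 1.88 (SE 0.54). F57A8.1 had -0.54, 0.35 and 1.24 early and a difference of -0.06 (SE 0.39). The HSP70 gene F44E5.4 had 0.91, 1.64 and 0.80 early, all above its late ratios, and a difference of -1.69 (SE 0.35; limma adjusted p = 0.26). Its late ratios were thus above the 0 h value and below the early ones, without the second passing the test.

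**Figure D4:**
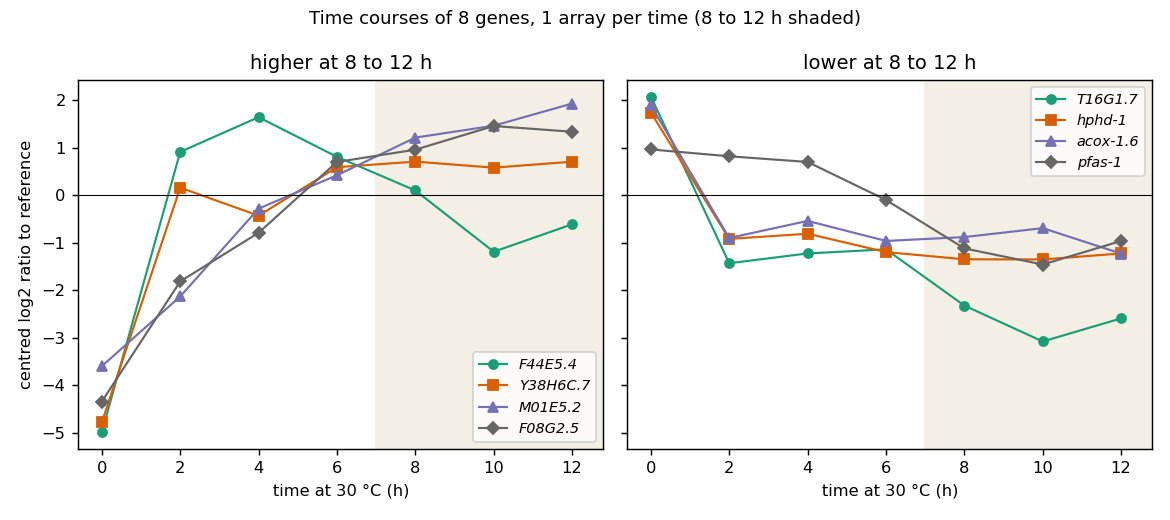
Centred log2 ratios over 0 to 12 h at 30 °C (1 array per time) for 4 genes higher and 4 genes lower at 8 to 12 h, with the late arrays shaded. F44E5.4 is highest at 4 h (1.64) and M01E5.2 at 12 h (1.93). acox-1.6 and hphd-1 are below 0 from 2 h on, while pfas-1 stays above 0 until 4 h and is at -1.12 at 8 h.

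Past the threshold were 251 of 8616 unnamed probes and 178 of 5757 named genes, where 2.98% of all features passed. The unnamed ones included 80 raised probes, with changes from 1.55 to 5.87, and 171 lowered ones, with changes from -4.60 to -1.45. Of 349 tested pseudogenes, 4 rose and 4 fell, where 0.974% of all features rose and 2.01% fell. In 13 raised features, and in 0 lowered ones, the 0 h value stood at the limit of the file, so that their changes are lower bounds. Y46H3A.4 and Y46H3A.5 were the only called genes on more than 1 probe. The 2 probes of Y46H3A.4 gave changes of 3.84 and 3.90, and those of Y46H3A.5 gave 1.71 and 2.30, all past the threshold.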

How the data were processed

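Values were deposited as log2 ratios, 1 for each probe on each array; base 2 is read from their range and is stated nowhere in the labels. How the authors scanned, background-corrected, normalized and filtered them is a step not given in the sources used here. Deposited values stop at -5 and 5. The platform annotation names 7900 of 19200 probes, and 7872 of these took current names from the WBcel235 table. Each array was centred on its median, probes of a gene were averaged, and limma 3.58.1 (lmFit and eBayes, R 4.3.3) was fitted to the 8, 10 and 12 h arrays against the 0 h array, and to the 8, 10 and 12 h arrays against the 2, 4 and 6 h arrays. The Benjamini-Hochberg threshold was 0.05. The number of arrays limits the precision, and signal over background is unknown. The fits were also run on simulated data, with independent noise of the same spread on every array. Such data cannot check for anything particular to the single 0 h array.

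Genes named are the 12 highest and 12 lowest past the threshold, the 4 with the largest and 4 with the smallest late spread, up to 5 per list, and the HSP70 pair; genes beside each other, further list members given for contrast and genes on several probes were chosen after their values were seen. The genes and the 28 lists were chosen with earlier results of these data known. Alternatives were no centring, quantile normalization, equal median absolute deviation, 1 missing array, single probes, a robust prior, a prior with trend, all 7 arrays, limits set to missing, leaving out each array and, chosen after seeing the data, centring within print blocks.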

Additional observations from a re-analysis of the deposited data

How the results depend on the processing

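No paired analysis was possible because no time point has more than 1 array. Without the 0 h array there is no comparison. The cause of each shift was not tested, except that fewer arrays enter some fits. For late heat against baseline, 140 higher and 289 lower became 76 and 79 after quantile normalization. Equal median absolute deviations gave 68 and 113, allowing 1 missing heated array gave 71 and 115, and fitting all 7 arrays in 3 classes gave 238 and 537. All 155 calls under quantile normalization were among the 429. Leaving out each late array gave 0 to 44 higher and 0 to 70 lower. Late against early gave 0 calls in each alternative run, with or without any array. Counts past 1 log2 unit and counts on 1 side of the baseline stayed within 1.5 times. Without centring the median change of all features was 0.11, against 0.04. Of 45 named genes past the threshold, 28 kept their call in each alternative that kept all arrays and in which they were tested. Of these 10 alternatives, F57A10.2 was tested in 8, and F44E5.4, F44E5.5 and C18H9.6 in 9. No named gene changed sign after passing, and 8 of 82 that did not pass did so in some alternative. Of 144 alternative values of the list medians, 11 moved by more than the spread between arrays. Without the 12 h array the median was -0.98 for amino acid metabolism, -0.16 for PALS proteins and 0.22 for DNA replication and repair.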
